A study of Mus musculus with 12 samples.

Results

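Chronic L-DOPA treatment of hemiparkinsonian mice was followed by RNA sequencing of the striatum, and the lesioned striatum was compared here with the unlesioned striatum. The comparison rests on 6 of the 12 libraries of the series, 3 from the lesioned and 3 from the unlesioned side, chosen by their labels alone. It was made on all genes, each represented by 1 transcript, and 19742 of 52169 gene symbols had enough reads to be tested. All animals were female wild-type C57BL/6J mice. In every mouse 6-hydroxydopamine (6-OHDA), a toxin that kills catecholamine neurons, had been injected into the right medial forebrain bundle, after 25 mg/kg desipramine to spare noradrenergic neurons. After 2 weeks of recovery both chronic groups received 10 mg/kg L-DOPA with 7.5 mg/kg benserazide daily for 9 days, and the tissue was taken 1 hour after the last dose. The other 6 libraries come from lesioned and unlesioned striata of mice that received a single dose and served to test whether the lesion effect differed, to choose the transcript that stands for each gene and in an alternative fit. No library of animals without L-DOPA or without a lesion was analysed here, so the lesion, the response to the last dose and the history of 9 doses cannot be told apart in these differences. Each library was made from striatal punches, which hold neurons, glia and vessels, so that fewer cells of a type and less RNA per cell cannot be told apart.

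Most neurons of the striatum are GABAergic medium spiny neurons, which carry either the D1 or the D2 dopamine receptor. The D1 receptor acts through a stimulatory G protein, adenylyl cyclase, cAMP and protein kinase A, and in the dopamine-depleted striatum L-DOPA also drives the ERK kinases through it. Both routes end on transcription factors already present in the nucleus, CREB at cAMP response elements and serum response factor at CArG boxes. The genes they switch on within minutes encode further transcription factors, phosphatases that turn the kinases off, and later secreted and synaptic proteins. Repeated L-DOPA leads to involuntary movements, dyskinesia, and prodynorphin and FosB are long known to accumulate with it.

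The 6 libraries held between 18992296 and 30729705 reads over 1 transcript per gene, and 3 counts, the floor used here, stood for 0.0970 to 0.164 CPM, that is counts scaled to the size of the library. The label of the tissue was checked on 11 genes of medium spiny neurons. Their summed level ranged from 9424 to 12129 CPM in the lesioned and from 10473 to 11202 CPM in the unlesioned libraries. No transcript checks the lesion itself, since the dopamine neurons keep their mRNA in the midbrain. One library stood apart. In unlesioned replicate 2 the 18 choroid plexus markers summed to 3284 CPM, against 142 to 239.7 CPM in the other 5 libraries, and Ttr, the transthyretin gene that defines this tissue, stood at 7.22, 2152 and 3.85 CPM in unlesioned replicates 1, 2 and 3. Of the 9 choroid plexus markers tested, only Ttr was called lower in the lesioned striatum (adjusted p = 0.0455), and in the fit blocked on replicate number 5 were called. Without that library Ttr was not called, and the collagen gene Col8a1 was the only member called, at 2.38 on the log2 scale. Cortical glutamatergic markers also varied between libraries of the same side, with sums of 123.4, 26.0 and 21.1 CPM in the lesioned and 132, 41.0 and 217 CPM in the unlesioned libraries, and none of 6 was called.

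**Figure D1:**
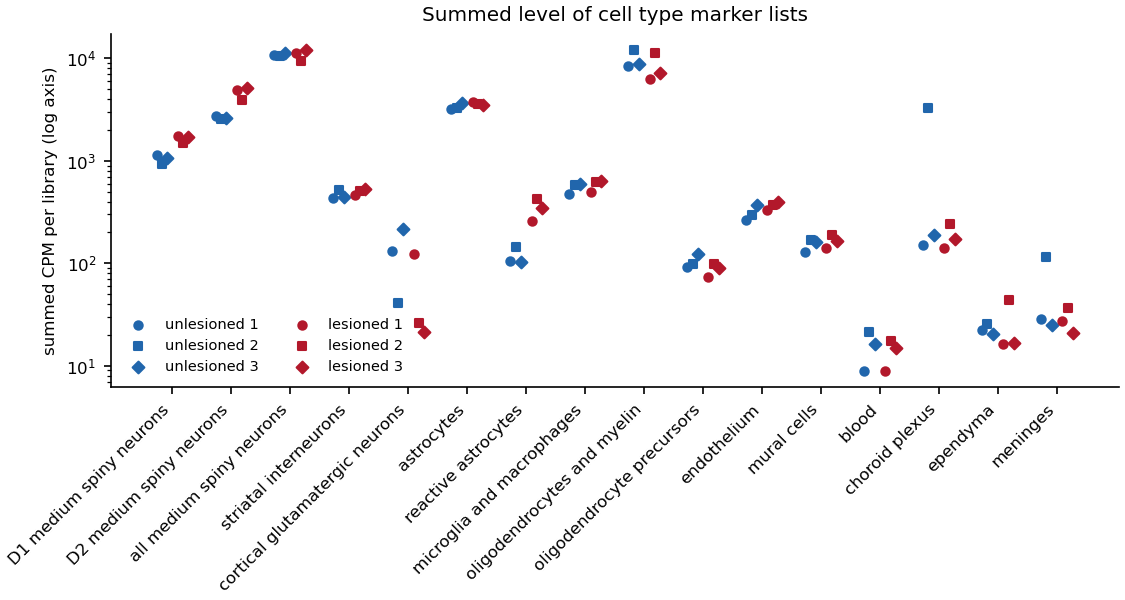
Summed CPM (log axis) of 16 lists of cell type markers in each of the 6 chronic libraries, with 1 point per library, blue for unlesioned and red for lesioned, and the marker shape giving the replicate number. The choroid plexus sum of unlesioned replicate 2 lies far above the other libraries, the cortical sum varies within both sides, and the reactive astrocyte sum is higher in every lesioned library.

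In edgeR's quasi-likelihood test on the 6 libraries, 2663 genes were regulated (Benjamini-Hochberg adjusted p under 0.05), which is 13.5% of the genes tested. Of these, 1641 genes (8.31%) were higher and 1022 genes (5.18%) were lower in the lesioned striatum. At least 1.5 fold was reached by 981 genes (4.97%) that rose and by 420 (2.13%) that fell. The median log2 fold change over all tested genes was -0.02. Same-numbered libraries of both sides deviated together, and blocking on that number gave 4741 genes (24.0%), 2483 higher (12.6%) and 2258 lower (11.4%), and all 2663 were among them. For the gene lists that follow, the 2 percentages in brackets are the shares of the list that rose and fell, to be read against 8.31% and 5.18% of all tested genes and, with the block, against 12.6% and 11.4%. With the trends with GC content and length removed and the block kept, 2438 genes were higher and 2864 lower (46.0% higher, against 61.6% without either step). The labels count 12 mice for 12 libraries while the study's text also speaks of the unlesioned side as a control within a mouse, and the p-values measure the spread between 3 libraries a side.

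**Figure D2:**
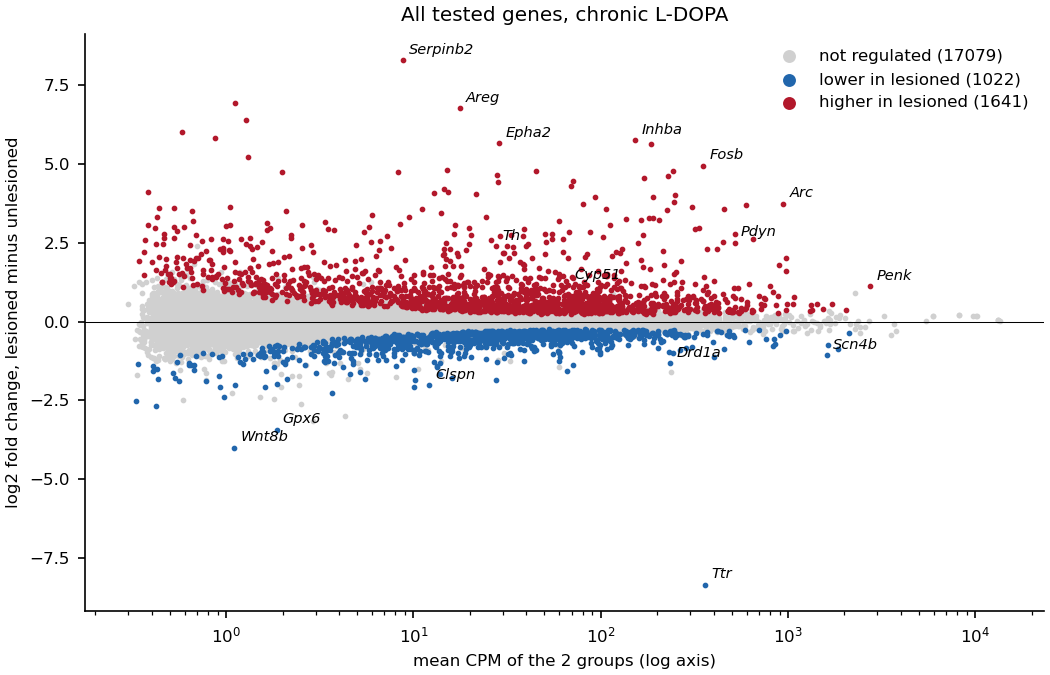
Log2 fold change (lesioned minus unlesioned) of each of 19742 tested genes against the mean CPM of both groups (log axis), with genes that rose in red, genes that fell in blue and others in grey. Rises reach much larger fold changes than falls, except Ttr, whose counts come almost wholly from unlesioned replicate 2.

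Among the genes with the largest rises, 5 had at most 3 counts in every unlesioned library, so only a lower bound of their fold can be given. Serpinb2 (chr1:109408087-109422177, plus strand, mm9), which encodes plasminogen activator inhibitor 2, stood at 12.9, 30.5 and 9.19 CPM in lesioned replicates 1, 2 and 3. It was at least 133-fold higher there than the floor of 3 counts per library (adjusted p = 9.98e-05). The bounds for the vomeronasal receptor gene Vmn1r43, the carboxypeptidase gene Cpb1, the C-type lectin gene Clec3a and Timp1, an inhibitor of metalloproteinases, were 16.8, 19.2, 8.68 and 19.3 fold. Timp1 lies inside Syn1 on the opposite strand, at a mean of 50.9 CPM, and whether reads were counted by strand is not given in the sources used here. Amphiregulin (Areg, chr5:91568625-91577449, plus strand), a ligand of the EGF receptor, was measured at 27.5, 48.9 and 28.4 CPM in the lesioned and 0.396, 0.200 and 0.356 CPM in the unlesioned libraries (log2 fold change 6.76, SE 0.34, adjusted p = 1.41e-06). The ephrin receptor gene Epha2 stood at 51.1, 67.1 and 50.1 against 0.969, 0.959 and 1.36 CPM (log2 fold change 5.65, SE 0.18, adjusted p = 9.76e-08). In both genes all 3 lesioned libraries lay far above the unlesioned ones, and groups without overlap were a condition for naming the largest changes. Smaller but still large rises were seen for the G protein-coupled receptor gene Gprc5a (4.74 on the log2 scale), the sorting nexin gene Snx31 (4.73) and Nfkbid, a nuclear inhibitor of NF-kappaB (4.63).

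Apart from Ttr, the largest falls were smaller than the largest rises. Wnt8b (chr19:44567962-44588763, plus strand), a secreted Wnt ligand, had at most 3 counts in each lesioned library and 2.55, 1.36 and 2.33 CPM in the unlesioned libraries, and was at least 12.7-fold lower (adjusted p = 1.97e-04). Gpx6, a glutathione peroxidase gene, fell from 2.42, 5.36 and 2.46 CPM to 0.164, 0.443 and 0.305 CPM (log2 fold change -3.43, SE 0.45, adjusted p = 9.88e-04). Fxyd7, a brain regulator of the sodium pump, stood at 14.2, 16.6 and 17.8 CPM in the unlesioned and 5.08, 2.97 and 3.62 CPM in the lesioned striatum (log2 fold change -2.07, SE 0.18, adjusted p = 8.37e-05). Claspin (Clspn), which serves the replication checkpoint in dividing cells, fell from 19.1, 21.4 and 17.8 CPM to 4.80, 4.61 and 5.05 CPM (log2 fold change -2.01, SE 0.12, adjusted p = 3.76e-06). The libraries of both sides were far apart for each of these genes, which were named under the same condition of no overlap. The remaining genes of this group were the potassium channel subunit gene Kcng1 (-1.87), the calcium sensor gene Otof (-1.84), the orphan receptor gene Gpr139 (-1.83), Ddit4l (-1.80), Fam188b2 (-2.40) and the retinoid isomerase gene Rpe65 (-1.74).

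**Figure D3:**
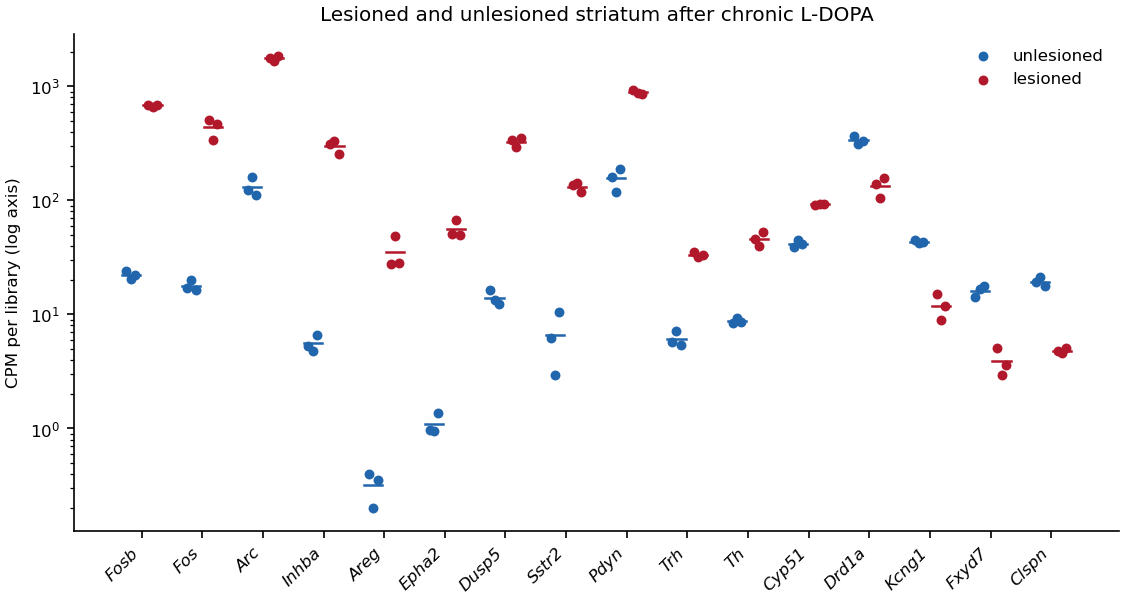
CPM (log axis) of 16 named genes in each library, with unlesioned libraries in blue, lesioned libraries in red and the bar at the mean of 3. The groups do not overlap for any of the 16 genes, of which 12 rose and 4 fell (Drd1a, Kcng1, Fxyd7, Clspn). Groups without overlap were a condition for naming the largest rises and falls, and 32.3% of all tested genes met it.

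Of 28 activity-regulated transcription factor genes, 26 rose in the lesioned striatum and none fell (92.9% and 0%), with a median log2 fold change of 2.34 over the 28. Without unlesioned replicate 2 and with the block the counts were again 26 and 0. Fosb stood at 688, 662 and 691 CPM in the lesioned and 24.0, 20.3 and 22.1 CPM in the unlesioned libraries (log2 fold change 4.94, SE 0.10, adjusted p = 1.23e-08). Fos was measured at 510.0, 339 and 467 against 17.1, 20.1 and 16.5 CPM (log2 fold change 4.61, SE 0.17, adjusted p = 1.73e-07). These are the AP-1 subunits that pair with Jun proteins on DNA, and their partner Jun also rose (4.01 ± 0.12, log2 fold change ± SE, as for all values written with ± without another name). Atf3, a stress-responsive factor of the ATF family, stood at 31.5, 20.5 and 35.3 against 0.925, 1.16 and 1.03 CPM (log2 fold change 4.80, SE 0.24, adjusted p = 1.39e-06), and Egr2, a zinc finger factor, at 536, 415 and 456 against 17.0, 20.3 and 13.9 CPM (log2 fold change 4.78, SE 0.16, adjusted p = 1.2e-07). In Fosb, Fos, Atf3 and Egr2 the lesioned libraries lay far above the unlesioned ones. The orphan nuclear receptor gene Nr4a2 had the largest standard error of the 28, with 189.9, 126 and 135 CPM in the lesioned and 10.8, 1.72 and 21.3 CPM in the unlesioned libraries (log2 fold change 3.71, SE 0.58, adjusted p = 0.00282). Its relatives Nr4a1 (2.76 ± 0.13) and Nr4a3 (3.63 ± 0.11) rose with smaller errors. Smaller rises were found for Jund (1.24 ± 0.09), Srf itself (0.96 ± 0.07) and Ier2 (0.99 ± 0.15). The members not called were Klf6 (0.10 ± 0.12, adjusted p = 0.663) and Myc (-0.28 ± 0.20, adjusted p = 0.414).

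The 250 bases before the start of the transcript used for each gene were searched on both strands, together with the 50 bases after it, for the cAMP response element TGACGTCA, its core CGTCA, which the full element contains, the AP-1 site TGANTCA, the CArG box and the sterol regulatory element TCACNCCAC. The full element was present in 5.7% of the 981 genes that rose at least 1.5 fold, in 1.0% of the 420 that fell as much and in 2.6% of all tested genes with a window. The core was present in 31.2%, 21.4% and 26.4%, the AP-1 site in 7.3%, 7.9% and 5.3%, the CArG box in 1.8%, 2.1% and 1.3%, and the sterol regulatory element in 2.1%, 0.7% and 1.0%. Among the 28 transcription factor genes, 19 (67.9%) held the core, 3 (10.7%) the full element, 3 (10.7%) a CArG box and 0 the AP-1 site. The core was also present in 18 of 30 activity-regulated effector genes (60.0%) and 13 of 24 sterol genes (54.2%). A match describes letters in a window and not a bound site. The bases before the start are shown for 5 genes that rose and hold the full element and for Egr2, which holds a CArG box, read from mm9 in the direction of the gene, 5′ to 3′, with the element in capitals. They are Nr4a2 (chr2:56967450-56967699, minus strand, element starting 47 bases before the transcript), Btg2 (chr1:135975733-135975982, minus strand, 166 bases), Vgf (chr5:137505915-137506164, plus strand, 90 bases), Dusp1 (chr17:26645418-26645667, minus strand, 143 bases), Sstr2 (chr11:113480406-113480655, plus strand, 73 bases) and Egr2 (chr10:67000367-67000616, plus strand, 72 bases).
Nr4a2: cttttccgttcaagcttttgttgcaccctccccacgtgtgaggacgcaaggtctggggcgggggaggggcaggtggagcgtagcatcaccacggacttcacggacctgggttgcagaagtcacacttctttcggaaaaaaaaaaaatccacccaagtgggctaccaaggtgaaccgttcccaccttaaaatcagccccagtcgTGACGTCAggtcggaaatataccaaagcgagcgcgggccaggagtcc
Btg2: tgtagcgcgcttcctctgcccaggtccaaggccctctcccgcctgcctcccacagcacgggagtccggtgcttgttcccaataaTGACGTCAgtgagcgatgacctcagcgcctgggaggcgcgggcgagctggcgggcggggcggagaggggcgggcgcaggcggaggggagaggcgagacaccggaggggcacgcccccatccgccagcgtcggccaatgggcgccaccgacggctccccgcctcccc
Vgf: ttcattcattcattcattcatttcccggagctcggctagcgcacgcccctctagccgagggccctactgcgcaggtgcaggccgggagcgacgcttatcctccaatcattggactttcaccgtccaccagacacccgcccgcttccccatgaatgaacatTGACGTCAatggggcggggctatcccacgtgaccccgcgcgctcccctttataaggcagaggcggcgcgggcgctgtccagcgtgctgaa
Dusp1: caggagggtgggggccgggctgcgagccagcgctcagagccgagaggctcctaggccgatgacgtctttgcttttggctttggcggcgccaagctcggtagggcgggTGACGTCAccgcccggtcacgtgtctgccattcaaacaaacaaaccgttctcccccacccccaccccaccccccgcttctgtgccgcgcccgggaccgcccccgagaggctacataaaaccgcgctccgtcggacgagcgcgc
Sstr2: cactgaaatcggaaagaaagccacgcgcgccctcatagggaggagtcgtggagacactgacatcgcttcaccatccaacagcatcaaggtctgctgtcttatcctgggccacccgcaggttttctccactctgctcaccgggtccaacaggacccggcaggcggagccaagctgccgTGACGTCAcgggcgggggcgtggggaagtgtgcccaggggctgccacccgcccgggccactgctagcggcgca
Egr2: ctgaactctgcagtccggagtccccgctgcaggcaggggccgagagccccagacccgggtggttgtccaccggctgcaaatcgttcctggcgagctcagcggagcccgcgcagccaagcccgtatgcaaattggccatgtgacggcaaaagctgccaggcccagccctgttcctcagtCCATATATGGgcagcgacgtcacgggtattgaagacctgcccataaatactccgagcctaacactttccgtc

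Most genes that carry out the activity response rose as well. Of 30 such effector genes 25 rose and 1 fell (83.3% and 3.33%), with the block 26 and 2 (86.7% and 6.67%), and the median was 2.18. Arc, which shapes glutamatergic synapses, stood at 1769, 1672 and 1831 CPM in the lesioned and 122.7, 161 and 112 CPM in the unlesioned libraries (log2 fold change 3.74, SE 0.14, adjusted p = 1.97e-07). Ptgs2, the inducible cyclooxygenase, was measured at 97.6, 71.8 and 92.2 against 3.57, 1.68 and 4.14 CPM (log2 fold change 4.78, SE 0.25, adjusted p = 1.93e-06), and the kinase gene Pim1 at 55.8, 58.5 and 48.2 against 2.91, 2.52 and 2.17 CPM (log2 fold change 4.43, SE 0.13, adjusted p = 8.24e-08). Both were at a few CPM or less in every unlesioned library. The small GTPase gene Rasl11a (4.10 ± 0.13), Arl5b (3.96 ± 0.09), the antiproliferative gene Btg2 (3.94 ± 0.28) and Homer1, a scaffold of metabotropic glutamate receptors (2.53 ± 0.11), were further members that rose. The pentraxin gene Nptx1 rose from 88.3, 36.7 and 103 CPM to 594, 561 and 632 CPM (log2 fold change 2.97, SE 0.31, adjusted p = 2.31e-04), with unlesioned replicate 2 the lowest. Ier5l fell (-0.50 ± 0.11, adjusted p = 0.0153). The neurotrophin gene Bdnf had 0.839 ± 0.324 CPM (SD, n = 3) in the lesioned and 1.70 ± 1.26 CPM in the unlesioned striatum and was not called.

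Among 19 feedback inhibitors of the MAP kinases, 6 rose (31.6%, against 8.31% of all tested genes), 2 fell (10.5%, against 5.18%) and 11 were not called, and the list's median was 0.05. With the block 7 rose and 3 fell (36.8% and 15.8%). The rises belonged to dual-specificity phosphatases, which strip the phosphates from ERK, p38 and JNK. Dusp5, a nuclear ERK phosphatase, stood at 337, 295 and 351 CPM in the lesioned and 16.2, 13.5 and 12.4 CPM in the unlesioned libraries (log2 fold change 4.55, SE 0.13, adjusted p = 5.94e-08). Dusp1 was measured at 415, 361 and 474 against 36.2, 40.0 and 32.7 CPM (log2 fold change 3.52, SE 0.13, adjusted p = 1.63e-07). Neither gene's groups came near each other. Dusp2 (3.15 ± 0.36), Dusp14 (1.86 ± 0.07), Dusp4 (1.43 ± 0.25) and the cytoplasmic ERK phosphatase gene Dusp6 (1.27 ± 0.13) rose as well, while Dusp7 (-0.67 ± 0.08) and Spred2 (-0.44 ± 0.08), an inhibitor of Ras signaling, fell.

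In TGF-beta and activin signaling, large rises were found among secreted ligands and a ligand-binding protein, and smaller ones among receptors and Smad proteins, which relay the signal. In the list of 34 genes 11 rose, 1 fell (32.4% and 2.94%), 22 were not called and the median was 0.20, while with the block 11 rose and 3 fell (32.4% and 8.82%). Inhba (chr13:16106308-16119044, plus strand), the activin A subunit, stood at 313, 333 and 254 CPM in the lesioned and 5.33, 4.76 and 6.66 CPM in the unlesioned libraries (log2 fold change 5.74, SE 0.16, adjusted p = 5.94e-08). Its span contains the transcript B230303A05Rik on the opposite strand, at a mean of 1.48 CPM. Fst encodes follistatin, which binds and blocks activin, and was measured at 42.8, 46.0 and 43.6 against 5.02, 4.24 and 4.24 CPM (log2 fold change 3.30, SE 0.10, adjusted p = 8.93e-08). The activin subunit and its inhibitor were both higher in all 3 lesioned libraries than in any unlesioned library. Tgfb1 stood at 35.0, 34.3 and 36.0 against 3.92, 5.44 and 4.24 CPM (log2 fold change 2.95, SE 0.13, adjusted p = 5.11e-07) and Tgfb3, which overlaps Ttll5 on the opposite strand, at 48.4, 52.6 and 46.6 against 10.4, 9.63 and 12.4 CPM (log2 fold change 2.18, SE 0.11, adjusted p = 1.49e-06). Tgfb2 was not called (-0.06 ± 0.13, adjusted p = 0.816). Of the receptors, Tgfbr1 (0.83 ± 0.11), Tgfbr3 (0.63 ± 0.10) and the activin receptor gene Acvr2a (0.61 ± 0.14) rose. The inhibitory Smad7 (0.72 ± 0.09) and the repressor Skil (1.32 ± 0.13) rose, and Bmp7 fell (-0.86 ± 0.16).

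Growth factors and matrix genes showed a few large changes among many small ones. In the EGF family, Hbegf, a second EGF receptor ligand, rose from 22.1 ± 0.998 CPM to 71.5 ± 8.30 CPM (mean ± SD, n = 3, edgeR log2 fold change 1.70, SE 0.10, adjusted p = 3.91e-06) beside Areg, Erbb4 fell (-0.80 ± 0.21), and the other 9 of 12 tested members were not called (16.7% and 8.33%), while with the block 3 rose and 3 fell (25% and 25%). In the neurotrophin and GDNF family 2 of 13 rose and 1 fell (15.4% and 7.69%), and with the block 3 rose and 3 fell (23.1% and 23.1%). Ret, the GDNF receptor kinase, stood at 18.0, 27.2 and 26.8 against 2.82, 9.99 and 2.13 CPM (log2 fold change 2.28, SE 0.46, adjusted p = 0.0109), with unlesioned replicate 2 well above the other 2 unlesioned libraries. Gdnf itself fell (-0.77 ± 0.15). Of 7 genes of plasminogen activation tested, 3 rose and 1 fell (42.9% and 14.3%), and with the block 4 rose and 1 fell (57.1% and 14.3%). The rises included Serpinb2 and the tissue plasminogen activator gene Plat (0.88 ± 0.10). Serpini1, neuroserpin, fell (-0.53 ± 0.14), a call lost without unlesioned replicate 2 (-0.49, adjusted p = 0.0675). Of 46 matrix and protease genes 10 rose and 2 fell (21.7% and 4.35%), and with the block 14 rose and 5 fell (30.4% and 10.9%). Timp2, an inhibitor of metalloproteinases, stood at 904, 805 and 852 against 405, 368 and 354 CPM (log2 fold change 1.18, SE 0.08, adjusted p = 1.88e-05), and the collagen genes Col15a1 (1.32 ± 0.28), Col1a1 (1.12 ± 0.23), Col4a1 (0.65 ± 0.15) and Col4a2 (0.63 ± 0.15) also rose, Col4a1 not without unlesioned replicate 2 (adjusted p = 0.0540).

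Neuropeptide precursors and granins are the cargo of dense core vesicles. Of 29 tested, 14 rose and none fell (48.3% and 0%), with a median of 0.64. Without unlesioned replicate 2, 12 rose and 2 fell, and with the block 16 rose and 3 fell (55.2% and 10.3%). Pdyn, the prodynorphin gene of D1 neurons, stood at 928, 869 and 853 CPM in the lesioned and 161, 119 and 189 CPM in the unlesioned libraries (log2 fold change 2.50, SE 0.15, adjusted p = 5.95e-06). Trh, which encodes thyrotropin-releasing hormone, was measured at 35.3, 31.8 and 33.3 against 5.68, 7.19 and 5.43 CPM (log2 fold change 2.46, SE 0.12, adjusted p = 1.39e-06). The lesioned libraries of both genes lay within a narrow range and well above the unlesioned ones. Penk, the enkephalin gene of D2 neurons, was at 3999.6, 3113 and 4154 against 1830.2, 1663 and 1715 CPM (log2 fold change 1.11, SE 0.11, adjusted p = 1.64e-04). Tac1, the substance P precursor gene of D1 neurons, was at 474, 347 and 461 against 329, 227 and 267 CPM (log2 fold change 0.64, SE 0.15, adjusted p = 0.0233), the smallest log2 fold change of these 4 peptides. Galanin (Gal) rose from very low levels, a mean of 0.230 ± 0.151 CPM (SD, n = 3), to 1.87 ± 0.276 CPM (edgeR log2 fold change 3.07, SE 0.42, adjusted p = 0.00127), and neurotensin (Nts, 1.72 ± 0.35) and the interneuron peptide genes Npy (0.81 ± 0.09) and Sst (0.33 ± 0.08) rose too. Npy and Sst were the 2 rises among 10 interneuron markers, of which Nos1 (-0.54 ± 0.11) and the choline transporter gene Slc5a7 (-0.35 ± 0.09) fell (20% and 20%). Slc5a7 was not called without unlesioned replicate 2 (-0.28, adjusted p = 0.0800). With the block 2 rose and 6 fell (20% and 60%), and the list's median was -0.36. The granin genes Scg2 (1.79 ± 0.13), Chga (1.79 ± 0.11) and Vgf (1.29 ± 0.08) rose together with the convertase gene Pcsk1 (1.23 ± 0.16), which cuts peptide precursors. Chgb (0.12 ± 0.08, adjusted p = 0.374) was not called.

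Of 27 neuropeptide receptor genes tested 5 rose and 2 fell (18.5% and 7.41%), and with the block 6 rose and 4 fell (22.2% and 14.8%). The largest of these changes was that of the somatostatin receptor gene Sstr2, at 136, 141 and 119 CPM in the lesioned and 6.25, 2.96 and 10.5 CPM in the unlesioned libraries (log2 fold change 4.30, SE 0.33, adjusted p = 2.9e-05). Its span overlaps Slc39a11 on the opposite strand, at a mean of 3.97 CPM. Sstr4 (1.36 ± 0.11), the galanin receptor gene Galr1 (1.25 ± 0.19) and the VIP receptor gene Vipr1 (1.14 ± 0.15) also rose. Sstr5 (-1.34 ± 0.33) and the cholecystokinin receptor gene Cckbr (-1.36 ± 0.37) fell. Cckbr stood at 3.82, 2.84 and 1.48 and 6.87, 3.96 and 9.70 CPM in lesioned and unlesioned replicates 1, 2 and 3, highest in unlesioned replicate 3, the library with the highest sum of cortical markers, and the part of cortical tissue in this difference was not tested.

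Of 14 genes of dopamine synthesis, transport, breakdown and reception 3 rose and 2 fell (21.4% and 14.3%), and with the block 3 rose and 4 fell (21.4% and 28.6%). Th, tyrosine hydroxylase, the rate-limiting enzyme, stood at 46.2, 39.7 and 52.3 CPM in the lesioned and 8.46, 9.35 and 8.63 CPM in the unlesioned libraries (log2 fold change 2.39, SE 0.12, adjusted p = 1.36e-06). Gch1, which makes the cofactor of Th, was low and rose (1.75, 2.22 and 2.00 against 0.705, 0.919 and 0.970 CPM, log2 fold change 1.19, SE 0.23, adjusted p = 0.00905). The dopamine transporter gene Slc6a3 had at most 7 counts in each of the 6 libraries and was not tested. The vesicular transporter gene Slc18a2 was at 6.26 ± 0.847 against 5.77 ± 0.484 CPM (SD, n = 3) and not called (adjusted p = 0.672). Drd1a, the D1 receptor gene, stood at 140.3, 106 and 156 CPM in the lesioned and 364, 314 and 331 CPM in the unlesioned libraries (log2 fold change -1.33, SE 0.14, adjusted p = 1.94e-04). Drd2 was not called (0.10 ± 0.10, adjusted p = 0.603), and Drd4 rose from low levels (0.873, 0.842 and 1.13 against 0.308, 0.200 and 0.194 CPM, log2 fold change 2.03, SE 0.34, adjusted p = 0.00389).

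The fall of Drd1a was not shared by all genes of D1 neurons. Of 9 markers tested, 2 rose (Pdyn and Tac1), 4 fell and 3 were not called (22.2% and 44.4%), and with the block 2 rose and 6 fell (22.2% and 66.7%). The 4 that fell were Drd1a, the transcription factor gene Ebf1 (-0.94 ± 0.12), the muscarinic receptor gene Chrm4 (-0.60 ± 0.12) and Slc35d3 (-0.47 ± 0.12), which serves D1 receptor trafficking, while Isl1 was not called (0.13 ± 0.14, adjusted p = 0.623). In the list of 51 genes of D1 receptor, cAMP and ERK signaling 7 rose and 7 fell (13.7% and 13.7%), and with the block 11 rose and 9 fell (21.6% and 17.6%). The G protein and cyclase of the D1 receptor, Gnal (0.25 ± 0.09, adjusted p = 0.0971) and Adcy5 (-0.03 ± 0.09), and Ppp1r1b, which encodes DARPP-32 (-0.37 ± 0.12, adjusted p = 0.0705), were not called. With the block Gnal was called higher (adjusted p = 0.0134) and Ppp1r1b lower (adjusted p = 0.00584). Pde1c, a phosphodiesterase gene, rose from 32.1, 26.1 and 36.1 CPM to 97.2, 81.3 and 87.0 CPM (log2 fold change 1.49, SE 0.12, adjusted p = 5.06e-05). Pde2a (0.52 ± 0.11), Pde4b (0.50 ± 0.08) and the protein kinase A subunit genes Prkacb (0.37 ± 0.09) and Prkar1b (0.30 ± 0.07) rose, and Rasgrp2 (-0.73 ± 0.14), Rps6ka5, which encodes the kinase MSK1 (-0.55 ± 0.09), and the anchoring protein gene Akap5 (-0.49 ± 0.14) fell. Of 17 regulators of G protein signaling 5 rose, among them Rgs2 (1.26 ± 0.11) and Rgs4 (0.77 ± 0.11), and Rgs14 fell (-0.59 ± 0.15), which is 29.4% and 5.88%, and with the block 5 rose and 3 fell (29.4% and 17.6%).

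Both enzymes that make GABA rose. In the list of 23 genes of GABA synthesis, transport and reception 4 rose and 4 fell (17.4% and 17.4%), and with the block 4 rose and 9 fell (17.4% and 39.1%). Gad2 stood at 1174, 1072 and 1045 CPM in the lesioned and 506, 473 and 527 CPM in the unlesioned libraries (log2 fold change 1.13, SE 0.08, adjusted p = 2.05e-05), and Gad1, the other GABA-synthesizing enzyme, at 1240.4, 1008 and 1033 against 522, 669.7 and 512 CPM (log2 fold change 0.95, SE 0.12, adjusted p = 9.99e-04). The vesicular GABA transporter gene Slc32a1 rose (0.32 ± 0.08). Of 32 genes of vesicle release 11 rose and 1 fell (34.4% and 3.12%), and with the block 14 rose and 7 fell (43.8% and 21.9%). The counts were 10 and 3 without unlesioned replicate 2. Synpr (1.18 ± 0.15) and Syp (0.82 ± 0.08), membrane proteins of synaptic vesicles, rose, as did Syt7 (0.81 ± 0.08) and Snap25 (0.35 ± 0.08), while the fast calcium sensor gene Syt2 fell (-0.97 ± 0.12). Among receptors the GABA-A subunit genes Gabrd (-0.52 ± 0.11) and Gabrb2 (-0.39 ± 0.09) fell. Of 25 glutamate receptor genes 2 rose (8.0%, no more than the 8.31% of all tested genes) and 5 fell (20.0%, against 5.18%), and with the replicate block 4 rose and 11 fell (16% and 44%). The AMPA receptor subunit gene Gria3 fell from 171, 159 and 181 CPM to 115, 115 and 117 CPM (log2 fold change -0.56, SE 0.08, adjusted p = 0.0012), Gria2 (-0.46 ± 0.11) and the NMDA receptor subunit gene Grin2b (-0.77 ± 0.21) fell as well, and of the kainate receptors Grik4 rose (1.14 ± 0.09) and Grik3 fell (-0.85 ± 0.13). Grin2b stood at 36.7, 30.4 and 27.3 against 44.4, 41.6 and 73.8 CPM, highest in unlesioned replicate 3, where the sum of cortical glutamatergic markers was also highest. All 6 tested cortical markers had negative log2 fold changes (median -1.56), none of them called, and their part in the glutamate receptor falls was not tested. Without unlesioned replicate 3 Gria2 (adjusted p = 0.0814) and Grin2b (0.0765) were not called, and Gria3 (0.00676) and Grik3 (0.0126) were. Of 185 calls named in the report, 31 were lost without that library and 28 without unlesioned replicate 1, so a lost call cannot be assigned to a tissue.

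Potassium channel genes that changed mostly fell. Of 76 tested genes 3 rose and 17 fell (3.95% and 22.4%), and with the replicate block 8 rose and 28 fell (10.5% and 36.8%). Kcng1, a silent subunit of voltage-gated channels, stood at 15.1, 8.95 and 11.8 CPM in the lesioned and 44.9, 42.1 and 43.3 CPM in the unlesioned libraries (log2 fold change -1.87, SE 0.16, adjusted p = 5.63e-05). The clone AK133086 shares part of its span in antisense, at a mean of 1.17 CPM. Kcnip3, a calcium-binding partner of the A-type channels that also represses Pdyn transcription, fell from 99.4, 96.5 and 112 CPM to 33.9, 39.9 and 44.0 CPM (log2 fold change -1.38, SE 0.11, adjusted p = 3.03e-05). The shaker-type subunit genes Kcna2 (-0.69 ± 0.09) and Kcna4 (-0.69 ± 0.08) and the G protein-gated subunit gene Kcnj3 (-0.80 ± 0.16) fell by similar amounts. Of the 3 rises, Kcne4 went from 0.925, 0.799 and 1.20 CPM to 2.56, 1.99 and 2.22 CPM (log2 fold change 1.19, SE 0.24, adjusted p = 0.00957). Among 35 sodium and calcium channel genes 5 rose and 6 fell (14.3% and 17.1%), and with the block 5 rose and 11 fell (14.3% and 31.4%). Scn4b, a sodium channel beta subunit abundant in the striatum, stood at 998, 901 and 1234 against 2283, 2194 and 2058 CPM (log2 fold change -1.06, SE 0.11, adjusted p = 2.82e-04). The calcium channel subunit genes Cacna2d2 (0.85 ± 0.07) and Cacna2d1 (0.82 ± 0.13) rose and Cacng3 fell (-0.98 ± 0.09). The sodium pump subunit gene Atp1b1 rose (0.54 ± 0.09), opposite to Fxyd7.

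**Figure D4:**
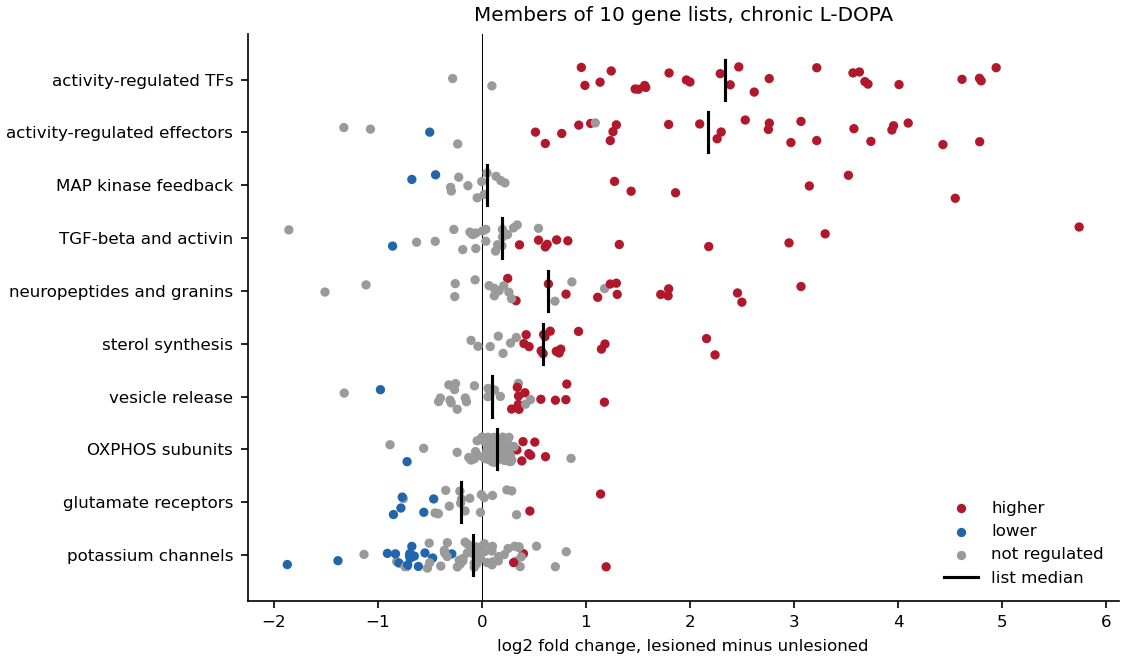
Log2 fold change (lesioned minus unlesioned) of each tested member of 10 gene lists, 1 point per gene, red where it rose, blue where it fell and grey where it was not regulated, with a black bar at the list median. The medians of the activity-regulated lists lie at 2.34 and 2.18, that of sterol synthesis at 0.59 and that of potassium channels at -0.08.

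Most genes of the cholesterol synthesis list rose. The pathway runs from acetyl-CoA through mevalonate and squalene to cholesterol, and SREBP-2, a transcription factor activated when sterols in the endoplasmic reticulum run low, is known to drive its genes. Of the 24 genes that could be tested 17 rose (70.8%, against 8.31% of all tested genes), none fell and 7 were not called, with a median of 0.59, and with the replicate block 19 rose. The sterol regulatory element was found in 0 of their 24 promoter windows and in 1.0% of those of all tested genes. Cyp51, lanosterol demethylase, stood at 90.8, 93.1 and 92.8 CPM in the lesioned and 38.9, 44.6 and 41.3 CPM in the unlesioned libraries (log2 fold change 1.15, SE 0.08, adjusted p = 1.16e-05). The squalene epoxidase gene Sqle was measured at 47.6, 52.8 and 47.2 against 29.3, 30.9 and 29.8 CPM (log2 fold change 0.72, SE 0.08, adjusted p = 3.67e-04). In both genes the spread within a side was small beside the difference. Rises were also found for Idi1 (1.18 ± 0.26), Sc4mol (0.76 ± 0.11), Pmvk (0.73 ± 0.14), Dhcr7 (0.61 ± 0.09) and Fdft1 (0.40 ± 0.08), along with Insig1 (0.74 ± 0.10), which holds SREBP back. Srebf2, the gene of SREBP-2 itself, was not called (-0.04 ± 0.09, adjusted p = 0.843), nor were Lss (0.16 ± 0.08) and Acat2 (-0.10 ± 0.09). Beside this list, the 15 tested markers of oligodendrocytes, cells that make much cholesterol for myelin, gave no call in either direction and 5 falls with the block (0% and 33.3%). Their sums ran from 6318 to 11260.0 CPM in the lesioned and from 8451 to 11995 CPM in the unlesioned libraries.

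Stress and clock genes changed only in part. Of 24 heat shock chaperone genes 5 rose and 1 fell (20.8% and 4.17%), and with the block 10 rose and 1 fell (41.7% and 4.17%). Dnajb5 stood at 572, 627 and 646 against 122, 125 and 132 CPM (log2 fold change 2.28, SE 0.08, adjusted p = 1.73e-07). Dnajb1 was at 107, 251 and 120.1 against 52.0, 71.9 and 44.6 CPM (log2 fold change 1.51, SE 0.31, adjusted p = 0.0109), and both lesioned and unlesioned replicate 2 were the highest of their side. The same held for Hspa5, the chaperone of the endoplasmic reticulum (297, 534 and 356 against 194, 274 and 205 CPM, adjusted p = 0.0292). Of 26 genes of endoplasmic reticulum stress 5 rose, among them Atf4 (1.22 ± 0.10) and Ddit3 (0.90 ± 0.09), and Trib3 fell (-1.09 ± 0.31), which is 19.2% and 3.85%, and with the block 5 rose and 2 fell (19.2% and 7.69%). Of 18 genes that respond to glucocorticoids 3 rose (16.7%, against 8.31% of all tested genes), led by the cell cycle inhibitor gene Cdkn1a (2.16 ± 0.21), the receptor gene Nr3c1 itself fell (-0.35 ± 0.09), a share of 5.56% near the 5.18% of all genes, and 14 were not called, among them Fkbp5 (0.12 ± 0.18, adjusted p = 0.737). With the block 4 rose and 4 fell (22.2% and 22.2%). Without unlesioned replicate 2 neither Nr3c1 (-0.35, adjusted p = 0.0601) nor Klf9, one of the 3 rises (0.42, against 0.49 with all libraries, adjusted p = 0.0549), was called. In the circadian clock list 3 of 19 rose (15.8%, against 8.31% of all tested genes) and 6 fell (31.6%, against 5.18%), with the block 3 and 7 (15.8% and 36.8%). Without unlesioned replicate 2 they were 3 and 5, with Nr1d2 not called (-0.26, against -0.28 with all libraries, adjusted p = 0.115). Per1, which cAMP also induces, rose from 135, 125 and 122 CPM to 384, 369 and 377 CPM (log2 fold change 1.56, SE 0.08, adjusted p = 1.29e-06), and the repressor gene Bhlhe40 rose (1.68 ± 0.12). Dbp (-0.73 ± 0.09), Per3 (-0.53 ± 0.12), Per2 (-0.35 ± 0.09) and Nr1d1 (-0.40 ± 0.08) fell.

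The study asked whether genes held by Polycomb proteins are released by L-DOPA, and the genes of these complexes themselves were regulated in 9 of 28 cases, against 13.5% of all tested genes, with 4 higher and 5 lower (5 and 6 with the block, against 24.0% of all genes). Kdm6b, which removes the repressive methyl groups from histone H3 lysine 27, stood at 318, 354 and 312 CPM in the lesioned and 36.3, 30.2 and 34.1 CPM in the unlesioned libraries (log2 fold change 3.29, SE 0.10, adjusted p = 8.24e-08). Of the subunits of Polycomb repressive complex 2, Ezh1 (-0.43 ± 0.09), Jarid2 (-0.48 ± 0.10) and Phf1 (-0.60 ± 0.09) fell, Rbbp7 rose (0.64 ± 0.07), and Ezh2 (0.25 ± 0.18), Eed (-0.14 ± 0.11) and Suz12 (-0.03 ± 0.08) were not called. Cbx7, a subunit of complex 1, fell (-0.56 ± 0.08). None of 39 Hox genes, classical Polycomb targets, had enough reads to be tested.

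The summed level of reactive astrocyte markers, most of it Gfap, was higher in every lesioned library than in any unlesioned one, at 261, 422 and 343 CPM against 106, 145 and 103 CPM. Of 8 tested 4 rose and 4 were not called (50% and 0%), while with the block 5 rose and Cp fell (62.5% and 12.5%). Gfap, the astrocyte filament protein, stood at 187, 328 and 272 against 54.0, 93.6 and 54.5 CPM (log2 fold change 1.96, SE 0.25, adjusted p = 8.25e-04), and Vim (1.06 ± 0.14) and Serpina3n (0.82 ± 0.19) rose beside Timp1. Of 10 general astrocyte markers none was called without the block and 1 rose with it (10% and 0%). None of 15 microglial markers was called without the block, and 3 rose with it (20% and 0%, against 12.6% and 11.4% of all tested genes). The interferon list had 1 call of 21, a rise (4.76% and 0%), and with the block 6 rises (28.6% and 0%), and its median was 0.53. The call was Isg15, at 1.15, 11.2 and 1.26 CPM in lesioned replicates 1, 2 and 3 and 0.352, 0.679 and 0.582 CPM in the unlesioned libraries (adjusted p = 0.0472), where lesioned replicate 2 carries most of the difference, and without each library in turn its log2 fold change lay between 1.16 and 3.51 and its adjusted p reached 0.143. Of 19 cytokine and NF-kappaB genes 4 rose and 1 fell (21.1% and 5.26%), and with the block 8 rose and 2 fell (42.1% and 10.5%), while without unlesioned replicate 2 the counts were 2 and 2. The NF-kappaB subunit gene Relb rose (0.65 ± 0.15), the inhibitor gene Tnfaip3 fell (-1.02 ± 0.18), and the neuronal chemokine gene Cx3cl1 stood at 1150.2, 1111 and 1251 against 752, 818 and 836 CPM (log2 fold change 0.55, SE 0.08, adjusted p = 0.00212).

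Further lists are given by their counts and a few members. Among receptors for acetylcholine, serotonin and noradrenaline 3 of 25 rose and 6 fell (12% and 24%), and with the block 3 rose and 10 fell (12% and 40.0%). Htr1b, a presynaptic serotonin receptor gene of medium spiny neurons, rose from 35.8, 38.3 and 39.9 CPM to 105, 96.6 and 104 CPM (log2 fold change 1.42, SE 0.08, adjusted p = 2.46e-06), the beta adrenergic receptor gene Adrb1 rose (1.26 ± 0.14), and Adra2c (-1.02 ± 0.15) and Chrm1 (-0.44 ± 0.08) fell. Of 68 axon guidance genes 12 rose and 3 fell (17.6% and 4.41%), with the block 19 and 7 (27.9% and 10.3%) and 8 and 5 without unlesioned replicate 2. Beside Epha2, Sema4c (1.49 ± 0.13) and Efnb1 (1.18 ± 0.10) rose, and Sema3a (-0.91 ± 0.17) and Dcc (-0.68 ± 0.12) fell. In the endocannabinoid system 2 of 9 rose and none fell (22.2% and 0%), with the block 3 and 1 (33.3% and 11.1%). Only 1 rose without unlesioned replicate 2, where Daglb was not called (0.26, against 0.25 with all libraries, adjusted p = 0.0915). Abhd12 rose (0.76 ± 0.08), while the receptor gene Cnr1 (0.05 ± 0.15, adjusted p = 0.886) was not called. Of 80 subunits of oxidative phosphorylation 8 rose and 1 fell (10.0% and 1.25%), near or below the background. With the block 20 rose and 2 fell (25% and 2.50%), and the share that rose was then above the 12.6% of all tested genes. Of the 80 subunits, 69 had a positive log2 fold change, with a median of 0.14. Their changes were small, as for Atp5b (0.34 ± 0.08). Of 76 cytosolic ribosomal protein genes 4 rose and none fell (5.26% and 0%), with the block 7 rose and 2 fell (9.21% and 2.63%), shares below those of all genes in both fits. The counts were 2 and 1 without unlesioned replicate 2, and 3 and 3 with the trends with GC content and length removed. Reads of ribosomal protein genes may be shared with pseudogenes. Of 20 genes of DNA replication Pcna (0.89 ± 0.10), Mcm2 (0.84 ± 0.17) and Mcm5 (0.75 ± 0.14) rose and Clspn fell (15% and 5%), with the block 4 and 1 (20.0% and 5%).

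The lesion effect after chronic treatment differed from that after a single dose in 1053 of 20664 genes (5.10%) by the interaction test in edgeR over all 12 libraries, with 744 (3.60%) more positive and 309 (1.5%) more negative after chronic treatment. Of the 1053, 566 were regulated in the chronic comparison only, 200 in the acute comparison only, 169 in both in the same direction and 80 in neither. A further 32 were lower after a single dose and higher after chronic treatment, and 6 were the reverse. The comparisons use different libraries, so treatment and the day or cohort of the animals cannot be told apart.

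Of the 28 transcription factor genes 9 had a larger lesion effect after chronic treatment and none a smaller one. Fosb rose by 4.66 on the log2 scale after a single dose and by 4.94 after chronic treatment (difference 0.28 ± 0.11, adjusted p = 0.152), a difference that the fit with a replicate block called (0.29, adjusted p = 0.0356). Klf10, a TGF-beta-inducible factor, was at 0.23 and 1.80 (difference 1.57 ± 0.22, adjusted p = 8.23e-04), and Nr4a3 at 2.72 and 3.63 (difference 0.91 ± 0.12, adjusted p = 5.43e-04). Dusp6 went the other way, at 2.47 after a single dose and 1.27 after chronic treatment (difference -1.19 ± 0.20, adjusted p = 0.00258), while Dusp5 was at 1.16 and 4.55 (difference 3.40 ± 0.18, adjusted p = 7.96e-08).

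Some secreted proteins, peptides and sterol enzymes had far larger lesion effects after chronic treatment. Inhba was at 0.58 on the log2 scale after a single dose and 5.74 after chronic treatment (difference 5.16 ± 0.21, adjusted p = 1.81e-08), and Fst at 0.49 and 3.30 (difference 2.82 ± 0.15, adjusted p = 7.96e-08). Pdyn was lower on the lesioned side after a single dose, at -0.77 (adjusted p = 2.27e-05), and higher after chronic treatment, at 2.50 (difference 3.27 ± 0.17, adjusted p = 7.98e-08). Sstr4 also changed direction, from -0.90 to 1.36 (difference 2.26 ± 0.17, adjusted p = 2.05e-06). Th was not called after a single dose (-0.34, adjusted p = 0.22) and its difference was 2.73 ± 0.23 (adjusted p = 6.3e-06). Drd1a fell in both, with -2.31 and -1.33 on the log2 scale (difference 0.99 ± 0.19, adjusted p = 0.00586), whereas no difference was called for Penk (0.93 and 1.11, difference 0.19 ± 0.14, adjusted p = 0.509). Of the 24 sterol genes 16 had a more positive lesion effect after chronic treatment and none a more negative one. Cyp51 was at 0.10 and 1.15 (difference 1.06 ± 0.10, adjusted p = 2.55e-05).

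**Figure D5:**
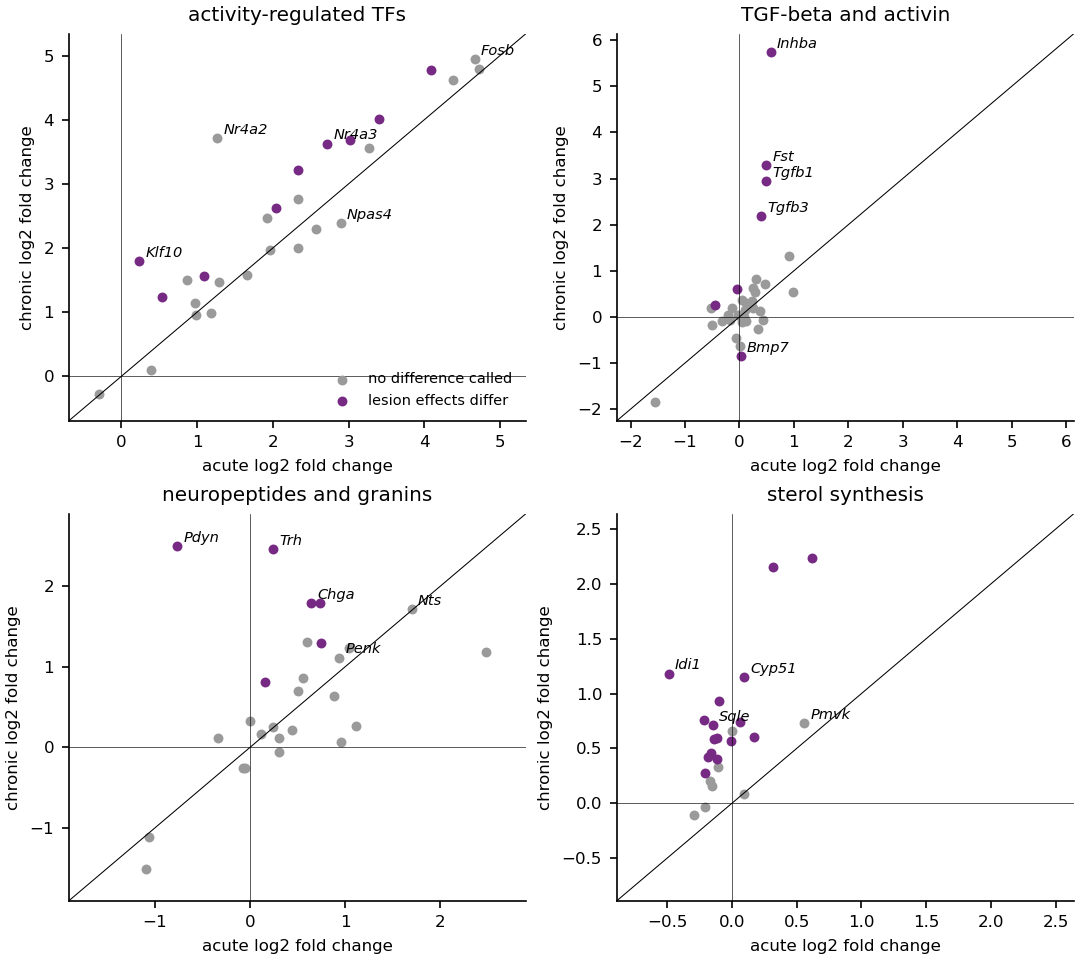
Lesion effect (log2 fold change, lesioned minus unlesioned) after chronic treatment against that after a single dose for the tested members of 4 gene lists, 1 point per gene, with the line of equal effects, and purple where the interaction test called a difference. Most transcription factor genes lie on or a little above the line, Inhba, Fst, Tgfb1 and Tgfb3 lie far above it, Pdyn is negative after a single dose and positive after chronic treatment, and most sterol genes lie near 0 after a single dose.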

How the data were processed

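Striatal punches were sequenced as RNA (TruSeq, Genome Analyzer II). The authors mapped reads to mm9 with the Genomatix Mining Station and deposited raw read counts per transcript, 189660 in all, without normalization. The authors also deposited normalized signal values per transcript, scaled to length and library size, which entered no test. Files of the authors' own comparisons hold fold changes and p-values, and neither these nor their 36 per-sample columns were used. Transcripts without a symbol held 0.0485% of counts and were left out. The transcript with the highest mean CPM over the 12 libraries stood for each symbol. Library totals were 18992296 to 30729705 counts over these.

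Counts were tested with edgeR 4.0.16 (limma 3.58.1, R 4.3.3): TMM scaling, filterByExpr, quasi-likelihood F test, Benjamini-Hochberg adjustment, threshold 0.05. CPM used TMM library sizes. The SE is the log2 fold change divided by the root of F. The interaction was fitted over all 12 libraries. In the chronic libraries deviations of same-numbered sides correlated (0.319, 0.406 and 0.144, limit 0.1), so the numbers were taken to pair them, from the data. Among differently numbered chronic libraries, unlesioned 3 with lesioned 1 was at 0.112, above the limit, so the limit does not set replicate 3 apart. In the acute libraries the same-numbered values were 0.244, 0.196 and 0.0061, and differently numbered ones reached 0.121. The acute numbers were thus not taken to pair the libraries, and a block in the interaction fit is an alternative only. DESeq2 1.42.0, other scaling, filters, GC content and length offsets and leaving out libraries were the alternatives. On simulated counts with 200 changed genes among 19485, 100 by 1 and 100 by 2 on the log2 scale, 198 were recovered. Of 218 calls 20 were false (9.17%), and 32 of 230 with the block (13.9%), both shares above the threshold of 0.05. Recovery of genes with smaller differences was not tested. Promoters were read from mm9 for 19713 of 19742 genes.

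Genes were named by a rule: the 15 largest rises and 10 largest falls without overlap and at least 1 CPM, and up to 4 members a list with the largest change. Further members were named after their values were seen. Members and lists were chosen with earlier results of these data known. Some genes are not reported here. Per1, Ddit3, Syp, Htr1b, Dbp and Penk also share bases with another transcript. Figures were drawn with Python 3.11.15 and matplotlib 3.10.9.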

Additional observations from a re-analysis of the deposited data

Results flagged for a closer look

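The lesion effect differed between chronic and acute treatment, by the interaction test in edgeR's quasi-likelihood model over all 12 libraries, in 1053 genes, and the values below are chronic minus acute log2 differences at an adjusted p under 0.05 in 7 gene lists. Among activity-regulated transcription factors the differences were 1.57 for Klf10, 0.91 for Nr4a3, 0.89 for Fosl2, 0.71 for Jund, 0.69 for Egr2, 0.67 for Junb, 0.61 for Jun, 0.58 for Egr3 and 0.48 for Per1, all positive. Among MAP kinase feedback inhibitors they were 3.40 for Dusp5, 2.34 for Dusp2, 1.17 for Dusp1, 1.14 for Dusp14 and 0.66 for Spred1, and negative for Dusp6 (-1.19) and Dusp10 (-0.69). In TGF-beta and activin signaling they were 5.16 for Inhba, 2.82 for Fst, 2.47 for Tgfb1, 1.79 for Tgfb3, 0.71 for Bmp2 and 0.67 for Acvr2a, and -0.88 for Bmp7.

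Among neuropeptides and granins the differences were 3.27 for Pdyn, 2.22 for Trh, 1.15 for Chga, 1.06 for Scg2, 0.66 for Npy and 0.55 for Vgf. Among their receptors they were 4.20 for Sstr2, 2.26 for Sstr4 and 1.01 for Vipr1, and -1.65 for the galanin receptor gene Galr2. Among dopamine genes they were 2.73 for Th, 2.23 for Drd4 and 0.99 for Drd1a, the last because Drd1a fell less after chronic treatment than after a single dose.

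Sterol genes differed in 1 direction, and 12 of the 16 called are given. The differences were 1.68 for Idi1, 1.06 for Cyp51, 0.98 for Sc4mol, 0.87 for Sqle and 0.73 for Mvd. They were 0.71 for Nsdhl, 0.69 for Insig1, 0.62 for Hsd17b7, 0.61 for Stard4, 0.59 for Sc5d, 0.52 for Fdft1 and 0.44 for Dhcr7.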

How the results depend on the processing

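Of 185 regulated genes named in the report, none turned its direction under any alternative, and between 154 (without unlesioned replicate 3) and 185 stayed regulated. Calls were lost by Akap5 (adjusted p 0.0507 with DESeq2's size factors, 0.0902 with the GC content and length trend removed), by Nr1d2 (0.0511 to 0.0541 in 4 alternatives), by Prkar1b (0.0594), Slc32a1 (0.0718) and Slc5a7 (0.0727) with that trend removed, and by Sstr5 (0.0907 in the fit of all 12 libraries). With the replicate block, 4741 genes were regulated, 2483 higher and 2258 lower, and all 2663 calls made without the block were kept. With the block and the trend removed, the counts were 5302, 2864 lower and 654 lower by at least 1.5 fold. With the block on genes with a GC content only, a setting chosen after seeing the data, they were 4560 and 2121 lower. Without a filter on low counts 1629 genes fell, 648 by at least 1.5 fold, and 1722 fell in the fit of all 12 libraries. Leaving out 1 library gave 1605 to 2602 regulated genes, 1099 to 1699 higher and 491 to 948 lower, and the count dropped by over 1.5 times without lesioned replicates 1 (1761) or 3 (1670) or unlesioned replicates 1 (1681) or 3 (1605).

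Without 1 library the sign varied for genes that were not regulated, with log2 fold changes from -0.096 to 0.043 for Adcy5, -0.056 to 0.24 for Cnr1, -0.0095 to 0.21 for Drd2, -0.047 to 0.30 for Fkbp5, -0.014 to 0.25 for Isl1, -0.015 to 0.18 for Klf6, -0.12 to 0.029 for Srebf2 and -0.14 to 0.027 for Tgfb2. Col8a1 ranged from -0.93 to 2.38, and was 0.25 with the block, 0.26 with the block and the trend removed and 0.26 with the block on genes with a GC content only. For the difference between chronic and acute effects, where the acute numbers were not taken to pair the libraries, the block gave 2755 genes (1534 higher, 1221 lower) and no filter 1913 (829 lower), and leaving out 1 library gave 695 to 1637, of which 503 to 1057 were higher and 188 to 580 lower. Of the 48 differences between chronic and acute effects given above by gene, none turned its direction, and between 38 (without acute lesioned replicate 1) and 48 (without chronic lesioned replicate 2) stayed called when 1 library was left out. The cause of these shifts was not tested.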
